A study of Mus musculus with 17 samples.

Results

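The tumor necrosis factor (TNF) ligand and receptor superfamilies were followed across mouse lungs with or without a distant tumor and with or without injected IL12-GEMy cells, and in the injected cells themselves. Members were all genes of the deposited table whose symbol begins with Tnfsf or Tnfrsf, plus Tnf, Lta, Ltb, Ltbr, Fas, Fasl, Cd40, Cd40lg, Cd27 and Cd70. The rule found 41 of the 18262 listed genes, 17 ligand and 24 receptor genes, and Cd70 was not among the listed genes. Lungs came from C57BL/6 mice in 4 groups, each with 4 libraries, and the cell product gave 1 library. In naive_untreated the mice had no tumor and no treatment. In naive_GEMy they had no tumor and received 8000000 IL12-GEMy cells, genetically engineered myeloid cells that secrete interleukin-12, with lungs taken 3 days later. In tumor_untreated they carried an orthotopic tumor of the M3-9-M rhabdomyosarcoma line, labelled with firefly luciferase and mCherry. The gastrocnemius muscle had received 500000 tumor cells, and the lungs were taken on day 15. In tumor_GEMy they carried the same tumor, received 8000000 IL12-GEMy cells intravenously on day 12 and gave lungs on day 15. The cell product came from bone marrow of mice without a tumor, transduced with a lentivirus and cultured with SCF, FLT3L and IL-6. No group received unmodified myeloid cells, so the cells and the interleukin-12 they secrete cannot be told apart.

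Ligands of the TNF superfamily are mostly trimers held on the cell surface, and some are cut loose to act at a distance. Their receptors recruit TRAF adaptors that switch on NF-kB and kinase cascades, and the subset with a death domain can instead assemble complexes that start apoptosis or necroptosis. In the lung, TNF drives recruitment of leukocytes, Fas ligand and TRAIL are weapons of natural killer (NK) and cytotoxic T cells, and the CD137, OX40 and GITR receptors costimulate lymphocytes.

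Lung libraries held 27566841 to 36815046 recovered reads, and the product held 31111315. Values are in reads per 1000000 assigned reads (RPM). Replicates correlated at 0.980 to 0.996 on the log2 scale. Whether each library is a separate mouse is not stated in the labels, so p values here speak only to the variation among the libraries, which may be technical. The descriptions of the tumor-bearing samples carry the number 1 in every untreated and 2 in every treated sample, so whatever it stands for cannot be told apart from treatment. Lung identity genes were high in all 16 lungs, with Sftpc at 8995 to 15974 RPM and Scgb1a1 at 20553 to 32420 RPM. The product had Sftpc at 0.0964 RPM and Cldn5 at 0, and the granule gene Mpo at 1759 RPM. Among tumor_untreated libraries, replicate 1 was the lowest for Tnf, Fasl, Tnfrsf9, Tnfrsf1b and Tnfsf10, and results that turn on it are given without it too. Hemoglobin transcripts took 4.15% of reads in tumor_untreated replicate 4 and 0.0735 to 1.78% in the other lungs.

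In untouched lungs the members spanned a wide range of values. The deposited FPKM divides by genomic span with introns included, and the reads per gene are not divided by any length, so neither scale ranks genes that differ in transcript length and intron content, and no order between genes is drawn. In RPM, the FPKM multiplied by the span, Tnfsf10, the gene of TRAIL, had 238 ± 26.4 (SD, n = 4) and the TNF receptor gene Tnfrsf1a 192 ± 10.8. The lymphotoxin beta receptor gene Ltbr had 112 ± 5.93 RPM, and the gene of its ligand, Ltb, had 32.8 ± 7.49 RPM. Tnfsf13, the gene of the B cell factor APRIL, had 28.4 ± 2.63 RPM. Tnf had 0.920 ± 0.282 RPM, Fasl 1.14 ± 0.337 RPM and Tnfrsf9 2.26 ± 0.241 RPM. Gene coordinates are on mm10. Within a gene, RPM is proportional to FPKM and shows the reads behind each value.

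Low values kept 4 members out of the tests, which required at least 0.5 RPM in at least 4 lung libraries, and 37 of 41 were tested. Tnfrsf17, the gene of the plasma cell receptor BCMA, had 48, 13, 29 and 40 reads summed over the 4 libraries of naive_untreated, naive_GEMy, tumor_untreated and tumor_GEMy. Tnfsf11, the gene of the osteoclast factor RANKL, had 33, 32, 52 and 55. Tnfsf18, the gene of the GITR ligand, had 9, 12, 10 and 15. Tnfsf4, the gene of the OX40 ligand, had 7, 16, 14 and 49.

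Comparing tumor_untreated with naive_untreated asked how lungs differed when a tumor grew in the leg. Of the 37 members tested, 17 were higher and 6 lower at an adjusted p under 0.05 in limma. Over all 15422 genes tested the shares were 14.7% higher and 26.0% lower, 2271 and 4006 genes. With median-of-ratios scaling the counts over all genes were 3105 higher and 2522 lower, and the members split 17 higher and 4 lower. The median log2 fold change was 0.22 over the members, 0.02 over the 14 ligands and 0.40 over the 23 receptors, beside -0.09 over all genes.

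The ligand gene with the largest difference was Tnfsf14 (chromosome 17, 57189474 to 57194181), which encodes LIGHT, a ligand of the herpesvirus entry mediator and the lymphotoxin beta receptor. The 4 naive_untreated libraries had 3.61, 3.58, 3.66 and 4.07 RPM. The tumor_untreated libraries had 18.4, 20.0, 22.7 and 24.9 RPM. Every tumor library was far above every naive one, and Tnfsf14 rose by a log2 fold change of 2.37 (SE 0.13, limma adjusted p = 1.56e-09).

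Tnf (chromosome 17, 35199367 to 35202007), the gene of the founding cytokine of the family, had 0.752, 0.852, 1.34 and 0.740 RPM in naive_untreated lungs. In tumor_untreated lungs it had 2.38, 4.31, 5.80 and 7.21 RPM. The groups did not overlap, with replicate 1 the lowest tumor library, and Tnf rose by a log2 of 1.86 (SE 0.26, limma adjusted p = 3.38e-05). Fasl (chromosome 1, 161780692 to 161788495), the death ligand of cytotoxic lymphocytes, had 0.859, 0.852, 1.34 and 1.51 RPM in naive_untreated. It had 2.26, 3.89, 5.41 and 5.18 RPM in tumor_untreated. Here too every tumor library lay above the naive ones (log2 1.48, SE 0.22, limma adjusted p = 8.71e-05). Tnfsf8, the gene of the CD30 ligand, also rose, from 1.06 ± 0.206 to 1.69 ± 0.112 RPM (SD, n = 4; log2 0.49, limma adjusted p = 0.0255).

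Receptor genes made up 13 of the 17 rises. Tnfrsf9 (chromosome 4, 150920155 to 150946102), which encodes CD137, a costimulatory receptor of activated T and NK cells, had 1.90, 2.39, 2.39 and 2.36 RPM in naive_untreated lungs. In tumor_untreated lungs it had 5.01, 11.8, 16.4 and 18.7 RPM. The tumor libraries were spread widely but all above the naive range, a log2 of 2.15 (SE 0.29, limma adjusted p = 3.34e-05). Tnfrsf1b (chromosome 4, 145212368 to 145246870), the gene of TNF receptor 2, which is carried mainly by leukocytes, had 86.7, 104, 103 and 104 RPM in naive_untreated. It had 164, 255, 333 and 311 RPM in tumor_untreated. Its lowest tumor library was again replicate 1, and Tnfrsf1b rose by a log2 of 1.37 (SE 0.19, limma adjusted p = 5.34e-05).

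Tnfrsf1a, the broadly expressed death domain receptor of TNF, moved less, from 192 ± 10.8 to 274 ± 15.7 RPM (SD, n = 4; log2 0.51, SE 0.07, limma adjusted p = 3.77e-05). Tnfrsf10b, the mouse death receptor of TRAIL, rose from 8.81 ± 0.901 to 15.7 ± 1.77 RPM (log2 0.80, adjusted p = 9.90e-05), while the gene of its ligand, Tnfsf10, did not pass (238 ± 26.4 and 272 ± 74.8 RPM, log2 0.14, adjusted p = 0.542). Without tumor_untreated replicate 1, at 161 RPM the lowest of all lungs, Tnfsf10 passed (log2 0.38, adjusted p = 0.0172, and 0.0172 to 0.897 over its alternatives). Tnfrsf23, a decoy receptor of TRAIL in mice, rose by 0.77, and its neighbours Tnfrsf22 (log2 -0.15) and Tnfrsf26 (log2 0.22) on chromosome 7 did not pass. These 3 are closely related copies, and how their reads were shared out is uncertain. Fas, the receptor of Fas ligand, rose from 35.8 ± 2.67 to 47.6 ± 7.00 RPM (log2 0.40, adjusted p = 0.00648).

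Tnfrsf18, the gene of the costimulatory receptor GITR, rose from 2.87 ± 0.304 to 5.23 ± 1.07 RPM (SD, n = 4; log2 0.75, limma adjusted p = 0.000517). Tnfrsf8, the gene of CD30, had 1.07, 0.682, 1.79 and 0.875 RPM in naive_untreated and 1.39, 2.24, 2.79 and 3.14 RPM in tumor_untreated, groups that overlapped (log2 0.85, SE 0.24, limma adjusted p = 0.0101). Cd27 rose by 0.51, the OX40 gene Tnfrsf4 by 0.37 and the DR3 gene Tnfrsf25 by 0.34. Tnfrsf12a, the receptor of TWEAK, rose by 0.45 and the death receptor gene Tnfrsf21 by 0.41. Cd40, a receptor of B cells and antigen-presenting cells, did not pass (18.3 ± 2.25 and 19.8 ± 3.98 RPM). Tnfrsf14, the gene of the herpesvirus entry mediator, had 6.76, 13.9, 15.3 and 6.56 RPM in tumor_untreated against 5.26, 4.50, 8.44 and 8.45 RPM in naive_untreated. The groups overlapped through tumor replicates 1 and 4, and Tnfrsf14 did not pass (log2 0.58, SE 0.27, limma adjusted p = 0.1004). It passed without tumor_untreated replicate 1 or 4 (adjusted p = 0.0380 to 0.0455), with hemoglobin as a covariate (0.0283) and with array weights (0.000654), and its range over all alternatives was 0.000654 to 0.283.

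Lower in tumor_untreated were Tnfrsf13c, Tnfrsf19, Tnfrsf11b, Tnfsf15, Tnfsfm13 and Tnfsf12. Tnfrsf13c (chromosome 15, 82221742 to 82224380) encodes the receptor through which the factor BAFF keeps B cells alive. It had 6.73, 10.6, 10.7 and 11.1 RPM in naive_untreated and 4.46, 3.93, 5.11 and 6.93 RPM in tumor_untreated. The lowest naive and the highest tumor library overlapped, and Tnfrsf13c fell by 0.88 on the log2 scale (SE 0.20, limma adjusted p = 0.00246). Tnfrsf19 (chromosome 14, 60963834 to 61046855), an orphan receptor gene, had 82.6, 69.4, 84.2 and 74.6 RPM in naive_untreated. In tumor_untreated it had 46.1, 50.0, 49.1 and 40.3 RPM, all below the naive libraries (log2 -0.74, SE 0.10, adjusted p = 2.05e-05). Tnfrsf11b, the gene of osteoprotegerin, a soluble decoy for RANKL and TRAIL, went from 4.72, 4.40, 7.21 and 5.75 RPM to 2.99, 3.34, 3.77 and 2.93 RPM without overlap (log2 -0.66, SE 0.16, limma adjusted p = 0.00339). Tnfsf12, the gene of TWEAK, fell by 0.37, and Tnfsfm13, the read-through transcript of Tnfsf12 and Tnfsf13, by 0.38. Tnfsf12, Tnfsf13 and Tnfsfm13 overlap on chromosome 11, so their reads cannot be cleanly divided. Tnfsf15, the ligand of DR3, went from 5.62, 4.33, 5.59 and 4.71 RPM to 3.20, 3.47, 4.53 and 3.39 RPM, with overlap (log2 -0.43, SE 0.16, limma adjusted p = 0.0432).

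Markers of infiltrating and resident cells differed between the same lungs, and in bulk tissue fewer cells of a type and less RNA per cell cannot be told apart. Of 10 neutrophil markers 9 were higher in tumor_untreated, with a summed level of 462 to 602 RPM in naive_untreated and 3430 to 5738 RPM in tumor_untreated. All 10 NK cell markers were higher, from a sum of 58.3 to 91.1 RPM to one of 129 to 298 RPM. Of 10 B cell markers 8 were lower, from 319 to 533 RPM to 181 to 333 RPM, and of 9 alveolar epithelial markers 6 were lower. Of 10 monocyte and macrophage markers 9 were higher (median log2 1.20), at sums of 5875 to 6489 and 5978 to 6868 RPM, and all 5 tested genes of the immature myeloid granule list were higher (median 1.39). Lower were 7 of 9 fibroblast and smooth muscle markers (sums of 3024 to 3846 and 1892 to 2523 RPM), all 6 airway epithelial markers and 5 of 8 endothelial markers. Of 12 T cell markers 7 were higher, at sums of 101 to 147 and 128 to 237 RPM, and all 15 interferon-gamma response genes were higher. No marker of these lists was at 0 in every lung, and their part in the members' differences was not tested.

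Several of the smaller calls rested on single libraries. The call was lost for Cd27 without naive_untreated replicate 2 or tumor_untreated replicate 3 or 4 (adjusted p = 0.0576 to 0.0690), for Tnfrsf12a without naive_untreated replicate 2 or 3 (0.0528 to 0.0577), and for Tnfsf8 without naive_untreated replicate 2 or 4 or tumor_untreated replicate 3 or 4 (0.0527 to 0.0760). Tnfsfm13 lost it without naive_untreated replicate 1 or 3 or tumor_untreated replicate 3 or 4 (0.0517 to 0.0685), Tnfrsf25 without naive_untreated replicate 1, 3 or 4 or tumor_untreated replicate 1, 3 or 4 (0.0517 to 0.0925), Tnfsf15 without naive_untreated replicate 1, 3 or 4, naive_GEMy replicate 1, tumor_GEMy replicate 2 or tumor_untreated replicate 1, 2 or 4 (0.0504 to 0.107), and Tnfrsf4 without any 1 of 11 libraries, all but naive_untreated replicate 3, tumor_untreated replicate 4 and tumor_GEMy replicates 1, 3 and 4 (0.0521 to 0.154). With hemoglobin as a covariate Tnfsf12 did not pass (adjusted p = 0.0504, and 0.00334 to 0.0504 over its alternatives), nor did Tnfsf15 (0.223). Tnfrsf4 did not pass with that covariate, on voom or when only these 2 groups were fitted (0.0606 to 0.0737). Tnfrsf25 did not pass with that covariate, with array weights or when only these 2 groups were fitted (0.0682 to 0.223), and with median-of-ratios scaling Tnfsf15 (0.0804) and Tnfsfm13 (0.0810) did not.

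**Figure D1:**
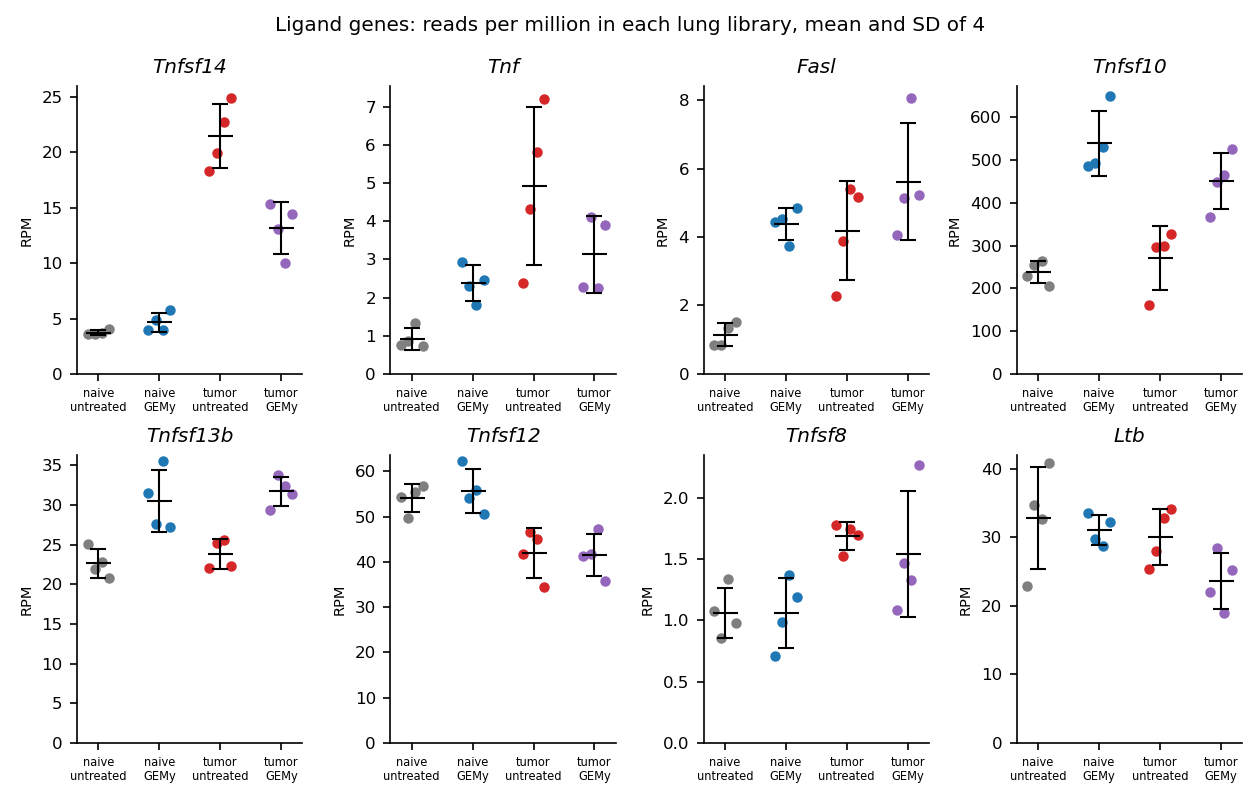
Each panel plots 1 ligand gene in RPM (vertical axis, from 0) for the 4 lung groups; points are single libraries, and the bar and whiskers are the mean and SD of 4. Tnfsf14 is high in both tumor groups, at 18.4 to 24.9 RPM in tumor_untreated, whereas Tnfsf10 and Tnfsf13b are high in both groups that received IL12-GEMy cells.

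Comparing naive_GEMy with naive_untreated asked what the injected cells changed in lungs without a tumor. In this comparison 9 of 37 members were higher and 0 lower, beside 5.12% and 1.58% of all genes tested. At an unadjusted p under 0.05 the count of lower members was 1, Tnfrsf19 (log2 -0.28), whose groups did not overlap. Voom also called 0, but quantile normalization, a fit of the compared groups alone and the hemoglobin covariate each called Tnfrsf19 lower. With no minimum on low values Tnfrsf17 was called lower. The risen members were 4 ligand and 5 receptor genes.

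Fasl had the largest rise. The naive_GEMy libraries had 4.44, 4.51, 3.73 and 4.85 RPM against 0.852 to 1.51 RPM in naive_untreated. No library overlapped, and Fasl rose by a log2 of 1.59 (SE 0.22, limma adjusted p = 0.000121). Tnfsf10 (chromosome 3, 27317077 to 27339665) had 229, 255, 263 and 205 RPM in naive_untreated and 485, 493, 529 and 649 RPM in naive_GEMy. All treated lungs exceeded all untreated ones, and Tnfsf10 rose by 1.17 (SE 0.18, adjusted p = 0.000379). The other rises among ligands were Tnf, from 0.920 ± 0.282 to 2.37 ± 0.468 RPM (SD, n = 4; log2 1.02, limma adjusted p = 0.0207), and Tnfsf13b, the gene of BAFF, from 22.7 ± 1.81 to 30.5 ± 3.91 RPM (log2 0.41, adjusted p = 0.00751). Tnfsf14 did not pass here, at 3.73 ± 0.229 and 4.66 ± 0.833 RPM (log2 0.27, adjusted p = 0.275).

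Tnfrsf9 led the receptors, with 7.50, 6.05, 4.71 and 7.99 RPM in naive_GEMy, each above the naive_untreated maximum of 2.39 (log2 1.34, SE 0.29, limma adjusted p = 0.00783). Tnfrsf1b had 165, 169, 128 and 194 RPM, also above every untreated library (log2 0.71, adjusted p = 0.0337). Tnfrsf25 went from 1.04, 1.43, 1.16 and 0.976 RPM to 1.71, 2.00, 1.79 and 1.89 RPM without overlap (log2 0.51, SE 0.12, limma adjusted p = 0.0114). Tnfrsf18 rose by 0.48 (adjusted p = 0.0466) and Tnfrsf1a by 0.33 (adjusted p = 0.00671). Tnfrsf14, the herpesvirus entry mediator that binds LIGHT, had 9.25, 10.6, 15.7 and 15.1 RPM against 5.26, 4.50, 8.44 and 8.45 RPM in naive_untreated. Its groups did not overlap, but it did not pass (log2 0.89, adjusted p = 0.0642). It passed without tumor_untreated replicate 1, 3 or 4 (adjusted p = 0.0410 to 0.0426) and under 5 other alternatives (adjusted p = 0.00342 to 0.0499).

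NK cell markers moved with these genes, as 9 of 10 were higher and their summed level was 262 to 452 RPM in naive_GEMy against 58.3 to 91.1 RPM in naive_untreated. Of 10 monocyte and macrophage markers 5 were higher (median log2 0.55), at sums of 6655 to 7207 RPM against 5875 to 6489 RPM. The neutrophil list had 0 of 10 members called, at sums of 447 to 568 and 462 to 602 RPM. Of 12 T cell markers 2 were higher (median log2 -0.01), at sums of 126 to 168 RPM in naive_GEMy and 101 to 147 RPM in naive_untreated. The regulatory T cell list had 0 of 5 called (median -0.21). All 15 genes of the interferon-gamma response list were higher, with a median log2 of 2.67. Their part in the members' differences was not tested. Leaving out 1 library ended the call for Tnf (naive_GEMy replicate 1 or 4 or naive_untreated replicate 1, 2 or 4, adjusted p = 0.0589 to 0.0748), Tnfrsf1b (any naive_untreated replicate or naive_GEMy replicate 1, 2 or 4, adjusted p = 0.0611 to 0.117) and Tnfrsf18 (any of the 8 compared libraries, tumor_untreated replicate 3 or tumor_GEMy replicate 1, 2 or 3, adjusted p = 0.0519 to 0.153). On voom Tnf (adjusted p = 0.0648) and Tnfrsf9 (adjusted p = 0.0597) did not pass, nor did Tnf on FPKM with a minimum of 0.5 (adjusted p = 0.0504). Tnfrsf18 lost its call on voom, with a pseudocount of 1, with no minimum, after quantile normalization and with the hemoglobin covariate (adjusted p = 0.0505 to 0.0731).

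Promoters of the risen genes were read for motifs of the factors that act downstream of interferons and TNF receptors, since these genes rose together with the interferon-gamma list. RefSeq promoter sequences on GRCm38.p6, 250 bases before to 50 after a gene start, matched 32 of the 41 members, some with more than 1 start. The interferon-gamma activated site (GAS) was searched as TTCNNNGAA, the core of the interferon-stimulated response element (ISRE) as 2 copies of GAAA with 2 bases between them, and the NF-kB site by its consensus, all on both strands. A GAS match lay in at least 1 promoter of 9 of the 32 members, beside 9.55% of the 27025 genes of the RefSeq promoter reference. The ISRE core lay in 4 of 32 members and 3.99% of those genes, and the NF-kB consensus in 4 of 32 and 9.55%. Counting every RefSeq start, each of the 5 receptor genes that rose in naive_GEMy held a GAS match and none of the 4 risen ligand genes did, while 4 of the other 23 members with a promoter held a match. This comparison was singled out after its values were seen. It also rests on the calls of Tnf, Tnfrsf1b and Tnfrsf18, which were lost when single libraries were left out, as given above. Of those 5 receptor genes, 3 held the GAS match at the start listed in the deposited table, since the promoters of Tnfrsf9 and Tnfrsf25 there held no match of any of the 3 motifs. In the sequences printed here no match of 1 motif overlapped that of another. A match is a run of letters and not evidence of binding. The promoters of those 5 receptor genes and of Tnfsf13b, which holds an ISRE core, are shown 5′ to 3′ in gene direction, with matches to any of the 3 motifs in capitals:
Tnfrsf1a (chr6:125349473-125349772, plus strand): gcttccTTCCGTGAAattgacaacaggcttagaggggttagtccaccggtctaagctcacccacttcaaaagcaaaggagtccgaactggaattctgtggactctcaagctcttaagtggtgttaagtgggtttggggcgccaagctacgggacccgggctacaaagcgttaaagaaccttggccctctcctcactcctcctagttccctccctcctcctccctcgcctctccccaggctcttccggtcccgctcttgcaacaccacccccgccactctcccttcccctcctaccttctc
Tnfrsf1b (chr4:145246821-145247120, minus strand): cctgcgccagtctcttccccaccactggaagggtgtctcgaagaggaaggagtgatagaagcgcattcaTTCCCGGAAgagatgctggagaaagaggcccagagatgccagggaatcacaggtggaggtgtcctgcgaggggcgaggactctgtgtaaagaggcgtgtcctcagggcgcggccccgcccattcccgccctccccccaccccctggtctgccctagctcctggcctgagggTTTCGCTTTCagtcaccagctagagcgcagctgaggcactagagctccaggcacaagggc
Tnfrsf9 (chr4:150927749-150928048, plus strand): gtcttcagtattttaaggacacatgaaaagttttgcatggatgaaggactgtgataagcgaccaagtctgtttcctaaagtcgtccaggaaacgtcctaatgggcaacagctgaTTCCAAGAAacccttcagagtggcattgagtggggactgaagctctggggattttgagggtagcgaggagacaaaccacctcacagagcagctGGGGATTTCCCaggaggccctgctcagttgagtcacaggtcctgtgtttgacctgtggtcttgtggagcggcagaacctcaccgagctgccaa
Tnfrsf18 (chr4:156026072-156026371, plus strand): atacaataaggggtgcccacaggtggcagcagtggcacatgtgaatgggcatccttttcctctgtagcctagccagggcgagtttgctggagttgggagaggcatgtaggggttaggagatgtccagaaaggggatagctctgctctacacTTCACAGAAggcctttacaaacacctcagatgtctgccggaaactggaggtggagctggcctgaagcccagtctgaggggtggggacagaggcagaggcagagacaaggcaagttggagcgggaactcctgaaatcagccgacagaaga
Tnfrsf25 (chr4:152116093-152116392, plus strand): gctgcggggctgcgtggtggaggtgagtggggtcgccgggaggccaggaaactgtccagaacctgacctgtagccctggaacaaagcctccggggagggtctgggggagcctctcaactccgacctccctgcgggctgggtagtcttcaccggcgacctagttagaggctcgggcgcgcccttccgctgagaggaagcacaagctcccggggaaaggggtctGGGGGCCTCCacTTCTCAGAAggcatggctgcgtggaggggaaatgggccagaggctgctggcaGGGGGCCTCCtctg
Tnfsf13b (chr8:10006383-10006682, plus strand): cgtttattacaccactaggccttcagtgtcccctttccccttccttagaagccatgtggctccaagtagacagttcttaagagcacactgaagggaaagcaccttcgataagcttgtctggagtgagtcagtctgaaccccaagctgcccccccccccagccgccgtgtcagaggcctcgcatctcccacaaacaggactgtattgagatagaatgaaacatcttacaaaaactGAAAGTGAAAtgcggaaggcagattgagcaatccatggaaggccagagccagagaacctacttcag

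The GAS match of Tnfrsf1b begins at base -181 from the gene start and its ISRE core, read on the opposite strand, at -10. That of Tnfrsf9 is at -136, ahead of 2 overlapping NF-kB matches at -43 and -42. The printed promoters of Tnfrsf9, Tnfrsf25 and Tnfsf13b belong to RefSeq starts downstream of the listed start, where none of these 3 genes had a match. Tnfrsf25 holds its GAS match at -16 between NF-kB matches at -28 and 37. In Tnfrsf18 the GAS match is at -99 and in Tnfrsf1a at -244. The ISRE core of Tnfsf13b is at -16.

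**Figure D2:**
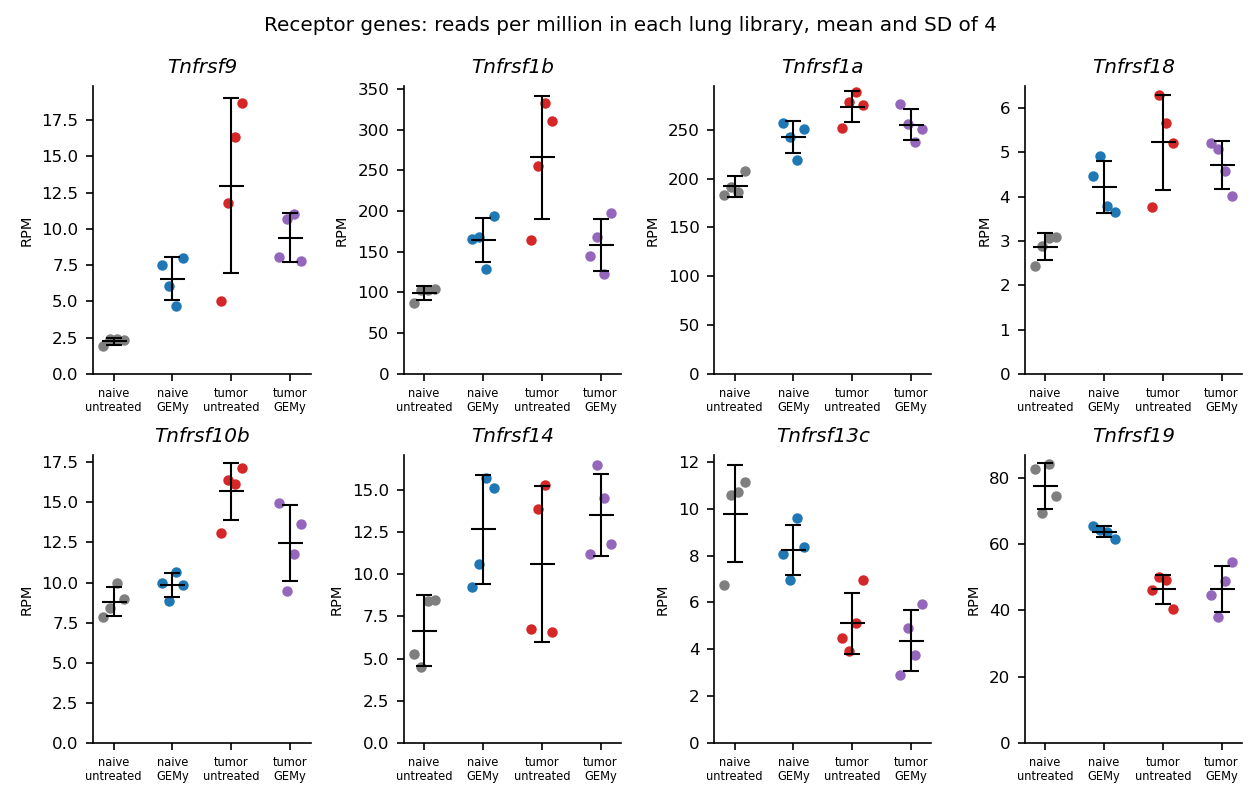
Each panel plots 1 receptor gene in RPM (vertical axis, from 0) for the 4 lung groups; points are single libraries, and the bar and whiskers are the mean and SD of 4. Tnfrsf1b and Tnfrsf9 have their highest mean in tumor_untreated, where their libraries overlap with those of tumor_GEMy. Tnfrsf13c and Tnfrsf19 are lower in both tumor groups, and Tnfrsf14 overlaps between naive_untreated and tumor_untreated.

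The cells were next followed in tumor-bearing mice, by setting tumor_GEMy against tumor_untreated. Tnfsf10 and Tnfsf13b rose and Tnfsf14 and Tnfrsf1b fell, 2 of 37 members in each direction beside 2.42% higher and 2.81% lower over all genes tested. Tnfsf10 went from 161, 298, 300 and 327 RPM to 366, 449, 466 and 525 RPM. The groups did not overlap (log2 0.77, SE 0.18, limma adjusted p = 0.0171). Tnfsf13b had 22.1, 25.3, 25.6 and 22.3 RPM in tumor_untreated and 29.4, 33.7, 32.4 and 31.3 RPM in tumor_GEMy. Again no library overlapped (log2 0.41, SE 0.09, adjusted p = 0.0114).

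Tnfsf14 had 15.3, 13.1, 9.99 and 14.4 RPM in tumor_GEMy, below the 18.4 to 24.9 RPM of tumor_untreated but above the 3.58 to 5.74 RPM of lungs without a tumor. It fell by 0.69 on the log2 scale (SE 0.13, limma adjusted p = 0.00514). Tnfrsf1b had 144, 168, 123 and 198 RPM in tumor_GEMy, overlapping with tumor_untreated only through replicate 1 of that group at 164 RPM. It fell by 0.72 (SE 0.19, adjusted p = 0.0378). Fasl (4.18 ± 1.44 and 5.62 ± 1.71 RPM), Tnf (4.93 ± 2.07 and 3.13 ± 1.01 RPM) and Tnfrsf9 (13.0 ± 6.03 and 9.39 ± 1.70 RPM) did not pass.

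The number of lower members depended on tumor_untreated replicate 1. Without it 7 members were lower, adding Tnf (log2 -0.81, adjusted p = 0.0305), Tnfrsf9 (log2 -0.70, adjusted p = 0.0241), Tnfrsf23 (log2 -0.63, adjusted p = 0.0227), Cd27 (log2 -0.56, adjusted p = 0.0268) and Tnfrsf21 (log2 -0.35, adjusted p = 0.0234), the last also called without naive_GEMy replicate 4 (adjusted p = 0.0367). The call for Tnfrsf1b was lost without any 1 of 11 libraries, namely naive_untreated replicates 2 to 4, naive_GEMy replicates 1 and 2, tumor_untreated replicates 2 to 4 and tumor_GEMy replicates 1 to 3 (adjusted p = 0.0504 to 0.114). Fitting only these 2 groups gave 0.172. Tnfsf10 lost its call without tumor_GEMy replicate 4 (adjusted p = 0.0517) and when only these 2 groups were fitted (adjusted p = 0.119), with a range of 0.00334 to 0.119 over its alternatives. Beside the falls, 2 of 10 neutrophil markers were lower, and their summed level was 1948 to 5600 RPM in tumor_GEMy and 3430 to 5738 RPM in tumor_untreated. Beside the rises, 13 of 15 interferon-gamma response genes were higher (median log2 1.22), at sums of 7156 to 8687 RPM in tumor_GEMy and 1570 to 4452 RPM in tumor_untreated, and 2 of 10 NK cell markers were higher, at 335 to 541 and 129 to 298 RPM. The part of these lists was not tested.

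The interaction asked whether the effect of the cells differed between lungs with and without a tumor. It was negative for 6 of 37 members, Tnfrsf9, Tnf, Tnfrsf1b, Fasl, Tnfsf14 and Tnfrsf1a, and positive for 0, beside 3.94% and 1.03% of all genes tested. On the positive side 0 members had an unadjusted p under 0.05 in limma, and voom called 0, but Tnfrsf17 was called when no minimum was set on low values. For Tnfrsf9 the difference between the effects was -1.65 on the log2 scale (SE 0.40, limma adjusted p = 0.0248), from 1.34 without a tumor to -0.32 with it. For Tnf it was -1.55 (SE 0.36, adjusted p = 0.0177), from 1.02 to -0.53, and for Tnfrsf1b -1.43 (SE 0.27, adjusted p = 0.00588), from 0.71 to -0.72. Fasl had 1.59 without and 0.41 with a tumor, a difference of -1.18 (SE 0.32, adjusted p = 0.0375). Tnfsf14 had 0.27 and -0.69 (difference -0.96, adjusted p = 0.00659), and Tnfrsf1a had 0.33 and -0.10 (difference -0.44, adjusted p = 0.0165). All 6 were also higher in tumor_untreated than in naive_untreated. Tumor_untreated is the reference for the effect with a tumor and naive_untreated for the effect without it, so the interaction is not independent of that difference.

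By contrast Tnfsf13b rose by 0.41 in both settings, with an interaction of -0.01 (SE 0.13, limma adjusted p = 0.986). Tnfsf10 had effects of 1.17 and 0.77 and an interaction that did not pass (-0.40, adjusted p = 0.427), except without tumor_untreated replicate 1 (-0.64, adjusted p = 0.0193, and 0.0193 to 0.631 over its alternatives). Without that library 10 members had a negative interaction, with Tnfrsf10b, Tnfrsf18, Tnfrsf8 and Tnfsf10 added. The call for Fasl was lost without any 1 of 11 libraries, all but naive_untreated replicates 3 and 4, naive_GEMy replicate 3, tumor_untreated replicate 1 and tumor_GEMy replicate 3 (adjusted p = 0.0616 to 0.0899). That for Tnfrsf9 was lost without naive_untreated replicate 1, tumor_untreated replicate 3, tumor_GEMy replicate 4 or naive_GEMy replicate 1 or 4 (adjusted p = 0.0523 to 0.0624). On the FPKM scale Fasl did not pass (adjusted p = 0.127), and on voom Tnfrsf9 did not (adjusted p = 0.0731). Of the interferon-gamma response list 13 of 15 genes had a negative interaction, as did 7 of 10 monocyte and macrophage markers and 4 of 10 NK cell markers, and their part was not tested.

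**Figure D3:**
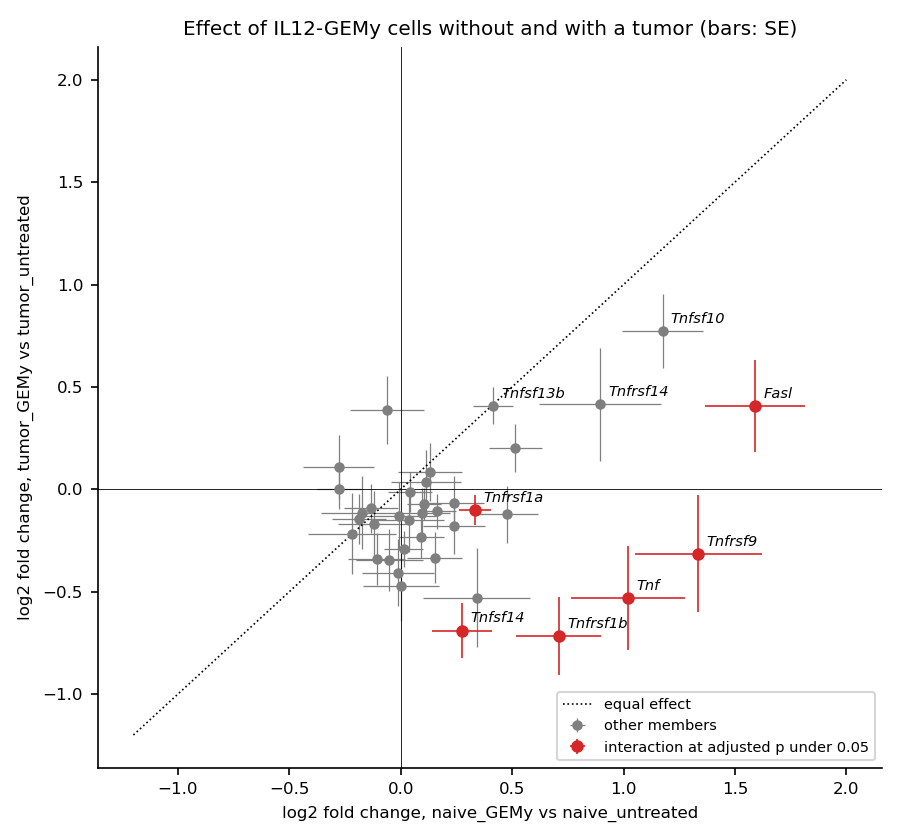
Each point is 1 of the 37 tested members, with its log2 fold change after IL12-GEMy cells in lungs without a tumor (horizontal axis) and with a tumor (vertical axis); bars are standard errors, red points passed the interaction test, and the dotted line marks equal effects. The 6 red points lie below the line, and Tnfsf13b lies on it.

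Comparing tumor_GEMy with naive_GEMy asked how the tumor changed lungs that had all received cells. Only Tnfsf14 was higher among the 37 members, and 4 were lower, beside 3.85% higher and 6.58% lower over all genes tested (593 and 1014 genes, or 836 and 485 with median-of-ratios scaling and 671 and 722 after quantile normalization). Tnfsf14 had 4.00, 4.88, 4.01 and 5.74 RPM in naive_GEMy and 9.99 to 15.3 RPM in tumor_GEMy (log2 1.41, SE 0.13, limma adjusted p = 3.80e-06). It was called in every alternative run for this comparison. Lower were Tnfrsf13c (8.24 ± 1.08 to 4.37 ± 1.32 RPM, SD, n = 4; log2 -0.88, limma adjusted p = 0.0112), Tnfrsf19 (63.8 ± 1.66 to 46.6 ± 6.95 RPM, log2 -0.46, adjusted p = 0.00771), Tnfsf12 (55.7 ± 4.90 to 41.5 ± 4.68 RPM, log2 -0.42, adjusted p = 0.0125) and Tnfsf13 (31.8 ± 1.80 to 25.9 ± 1.94 RPM, log2 -0.29, adjusted p = 0.0357). B cell markers were lower in 7 of 10, at sums of 330 to 372 RPM in naive_GEMy and 176 to 255 RPM in tumor_GEMy. Of 10 neutrophil markers 9 were higher (median log2 3.03), at sums of 447 to 568 RPM in naive_GEMy and 1948 to 5600 RPM in tumor_GEMy, and 7 of 12 T cell markers were higher, at 126 to 168 and 200 to 233 RPM. The part of these lists was not tested. The 4 lower calls were lost with hemoglobin as a covariate (adjusted p = 0.118 to 0.275). Tnfsf13 also lost its call without tumor_GEMy replicate 1 or 3 or naive_GEMy replicate 1, 2 or 4 (adjusted p = 0.0594 to 0.109), after median-of-ratios scaling (adjusted p = 0.122) and after quantile normalization (adjusted p = 0.0713).

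**Figure D4:**
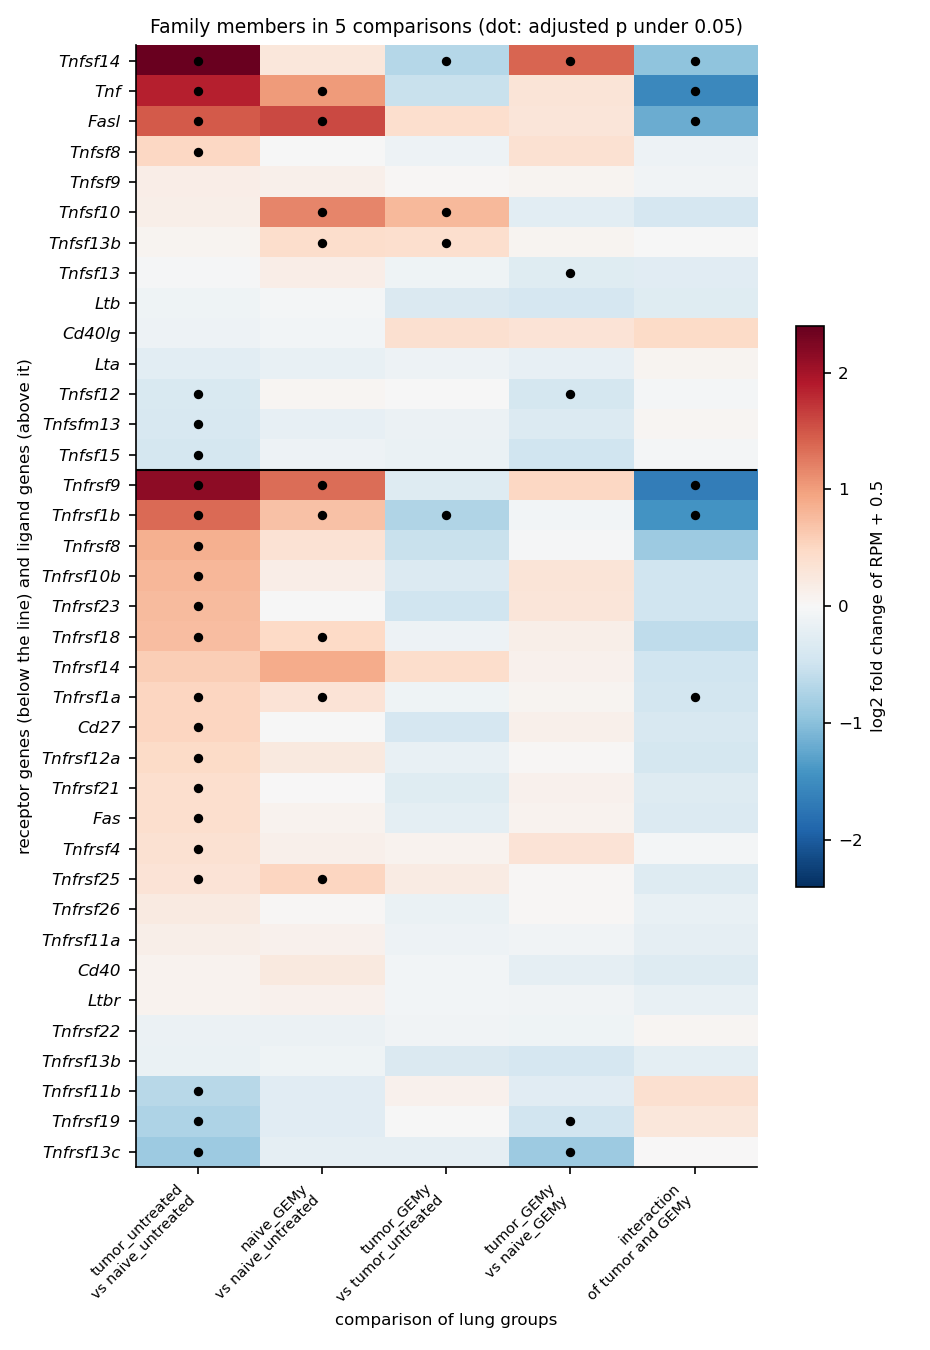
Colour gives the log2 fold change of RPM + 0.5 for each of the 37 tested members (rows, ligand genes above the line and receptor genes below it) in 5 comparisons of lung groups (columns), and a black dot marks an adjusted p under 0.05. The first column holds 23 dots, and the column of tumor_GEMy against tumor_untreated holds 4.

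Ligand and receptor genes were also set side by side as pairs. For LIGHT the ligand gene Tnfsf14 moved with the tumor. Its receptor gene Tnfrsf14 had group means of 6.66 to 13.5 RPM, and its calls depended on the setting in both comparisons with naive_untreated, as given above. Ltbr, at 112 to 120 RPM, did not pass (log2 0.09, limma adjusted p = 0.362 for the tumor), except there with array weights (0.0414). Ltb, the other ligand of the lymphotoxin beta receptor, did not pass either (group means 23.7 to 32.8 RPM), nor did Lta (0.558 to 0.873 RPM). The CD137 receptor gene Tnfrsf9 moved, and its ligand gene Tnfsf9 stayed at 3.44 to 4.01 RPM and did not pass in any comparison. The same held for the CD40 ligand gene Cd40lg (0.627 to 0.986 RPM) and Cd40 (18.3 to 21.7 RPM). For BAFF the ligand gene Tnfsf13b rose with the cells and the receptor gene Tnfrsf13c fell with the tumor, while Tnfrsf13b, the gene of the second BAFF receptor TACI, did not pass (13.0 to 18.7 RPM). In tumor_GEMy against naive_GEMy Tnfrsf13b was close to the threshold (log2 -0.40, limma adjusted p = 0.0533), and it passed there without naive_untreated replicate 1, tumor_untreated replicate 1 or 4 or tumor_GEMy replicate 4 (0.0243 to 0.0424) and under 3 other alternatives (0.00778 to 0.0304). Tnfrsf11a, the receptor of RANKL, was at 12.3 to 13.6 RPM in all 4 groups. A p that misses the threshold does not show that these levels were equal.

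The signalling apparatus below the receptors was described with 38 genes of TRAF adaptors, death complexes and NF-kB, all of which were tested. Their calls were not followed through the alternative runs or with single libraries left out. In tumor_untreated against naive_untreated 21 were higher and 2 lower, beside 14.7% and 26.0% of all genes tested, with a median log2 of 0.27 beside -0.09. The largest rises were Mlkl (1.12), the executor of necroptosis, Bid (0.99), which carries death receptor signals to mitochondria, Tnfaip3 (0.91), the ubiquitin-editing brake A20 on NF-kB, and Nfkbie (0.86), an inhibitor of NF-kB. The 2 that fell were Fadd (-0.32), the adaptor that brings caspase 8 to death receptors, and Traf1 (-0.23). In naive_GEMy against naive_untreated 6 were higher and 0 lower, beside 5.12% and 1.58% of all genes, with a median of 0.20 beside -0.04. Mlkl went from 7.32 ± 1.13 to 20.3 ± 2.53 RPM (SD, n = 4; log2 1.42), and Rnf31, the catalytic subunit of the linear ubiquitin ligase at TNF receptor 1, from 46.9 ± 2.49 to 82.6 ± 5.98 RPM (log2 0.81). Nfkbie (0.74) and Bid (0.62) were the next largest.

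In tumor_GEMy against tumor_untreated Rnf31 rose (0.46) and Map3k14 (-0.35), Birc3 (-0.33), Nfkbia (-0.31) and Ikbkb (-0.26) fell, 1 and 4 of 38 beside 2.42% and 2.81% of all genes, with a median of -0.09 beside -0.01. Map3k14 encodes the kinase of the alternative NF-kB route, and Birc3 and Nfkbia are themselves targets of NF-kB. In tumor_GEMy against naive_GEMy 2 were higher, Nfkbia (0.26) and Ripk1 (0.26), and 2 lower, Traf1 (-0.29) and Traf5 (-0.23), counts close to the 3.85% and 6.58% of all genes, with a median of 0.02 beside -0.07. The interaction was negative for 6 of the 38, Nfkbie (-0.94), Bid (-0.71), Tnfaip3 (-0.61), Birc3 (-0.61), Map3k14 (-0.58) and Nfkbia (-0.52), and positive for 0. Over all genes tested the shares were 3.94% negative and 1.03% positive, so 0 positive is close to the share over all genes. Among 6 superfamily genes under other symbols, Relt rose with the tumor (log2 1.56, limma adjusted p = 5.42e-08) and with the cells in naive lungs (0.80), and Edar, Eda and Nradd fell with the tumor (-0.61, -0.49 and -0.33). Over all genes tested the shares were 14.7% higher and 26.0% lower with the tumor, and 5.12% higher with the cells in naive lungs. In tumor_GEMy against tumor_untreated Relt had a log2 of -0.48, and its interaction was -1.28, each the lowest of the 6. In each of these comparisons 1 of the 6 genes was called lower, beside 2.81% and 3.94% of all genes.

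The cell product, a single library with no replicate and so no test, had its own profile of members. With enriched taken as at least 1 RPM and at least 8 times the naive_untreated mean, 3 of 41 members were enriched, Tnfsf4, Tnf and Tnfsf14, beside 3.51% of all genes. Tnfsf4 had 7.87 RPM (95% counting interval 6.92 to 8.93), 127 times the 0.0619 RPM of untouched lung, a mean that rests on 7 reads. Tnf had 26.7 RPM (24.9 to 28.6), 29.0 times. Tnfsf14 had 60.0 RPM (57.4 to 62.8), 16.1 times, and that level was above every lung library. At a threshold of 4 times Tnfrsf26, Tnfrsf23 and Tnfsf9 joined them. Against the mean of all 16 lungs 2 were enriched, Tnf and Tnfsf4, and Tnfsf14 was at 5.57 times. Tnfrsf1b had 269 RPM, within the 86.7 to 333 RPM of the lungs.

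Other members were scarce in the product. Fasl, Cd40lg and Tnfrsf19 had 0 reads there, which allows up to 0.0964 RPM (3 reads). Tnfrsf19 was thus at least 806-fold lower than in untouched lung, Fasl at least 11.8-fold and Cd40lg at least 7.52-fold. Tnfsf10 had 16.7 RPM (15.3 to 18.2) against 238 in untouched lung, 14.3 times less, and Tnfsf13b 0.964 RPM (0.651 to 1.38), 23.5 times less. Tnfrsf11b had 4 reads, and Tnfrsf25 and Tnfrsf17 had 1 read each. The 12 T cell markers summed to 129 RPM in the product, within the 101 to 237 RPM of the lungs, and 4 of the 12 had fewer than 3 reads there. Among those 4, Cd8b1 had 0 reads, and Cd3e had 0.0643 RPM against 9.31 to 22.8 RPM in the lungs. The 5 regulatory T cell markers summed to 23.0 RPM, within the 18.8 to 34.3 RPM of the lungs. The sums were below the lungs for the 10 NK cell markers (30.2 against 58.3 to 541 RPM) and the 10 B cell markers (23.9 against 176 to 533 RPM). The intervals cover counting error only. The genes that rose in naive_GEMy against naive_untreated were thus mixed in the cells before injection. Among the ligand genes, Fasl, Tnfsf10 and Tnfsf13b were lower there than in untouched lung, and Tnf was higher. Tnfsf14, which did not pass in that comparison, was also higher. Among the receptor genes, Tnfrsf1b was above every naive_untreated library, and Tnfrsf25 and Tnfrsf18 (1.74 RPM against 2.43 to 3.10 RPM) were below. Tnfrsf1a (184 RPM) and Tnfrsf9 (2.02 RPM) lay within the naive_untreated libraries, at 183 to 207 and 1.90 to 2.39 RPM. How much of a lung's RNA came from injected cells was not tested.

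**Figure D5:**
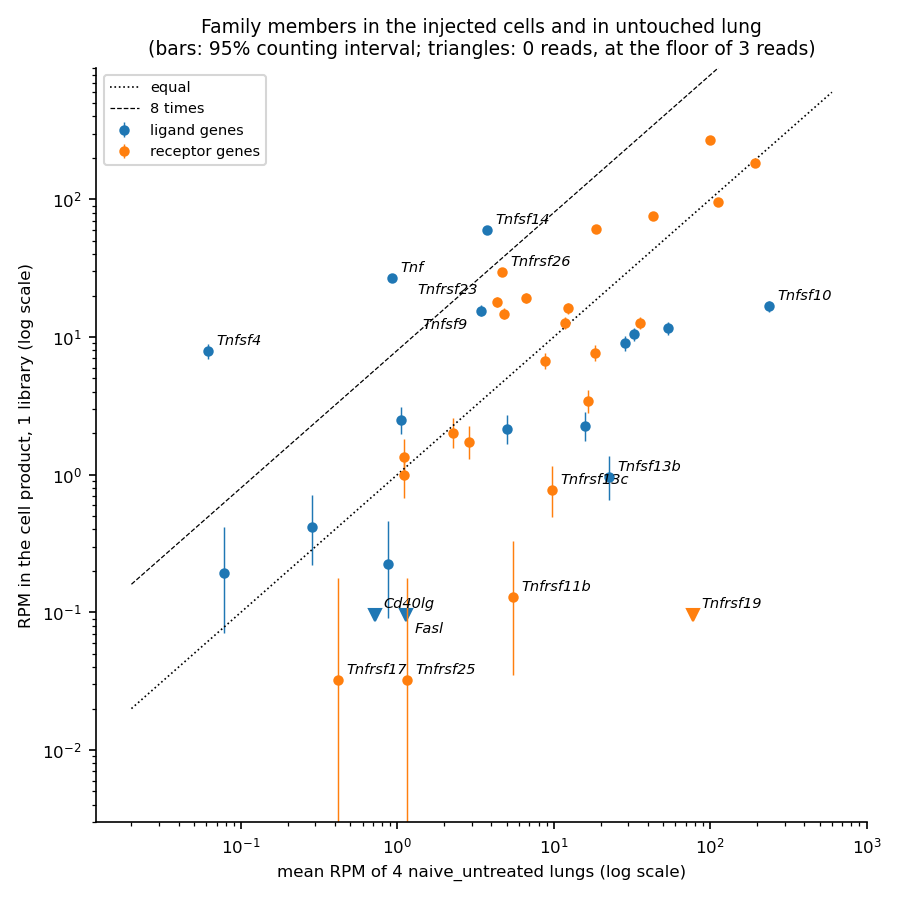
Each point is 1 member, with its mean in 4 naive_untreated lungs (horizontal axis, RPM, log scale) and its value in the 1 cell product library (vertical axis, RPM, log scale); bars are 95% counting intervals, triangles mark 0 reads drawn at the floor of 3 reads, and the dotted and dashed lines mark equal values and 8 times. Tnfsf4, Tnf and Tnfsf14 lie above the dashed line, and Tnfrsf19, Tnfsf10 and Tnfsf13b lie far below the dotted one.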

How the data were processed

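RNA sequencing of 16 lung libraries and 1 cell product library was used. The deposited values are FPKM by the authors, with STAR 2.7.3a, Partek and mm10 named in the submitters' processing notes; the annotation, strand setting and filters are not given in the sources used here. FPKM times the listed genomic span divided by 1000 summed to 1000000 in every library, so this product is RPM, and introns count in the length. The most frequent step among low RPM values, refined over its whole multiples, gave the read number. Of lung values below 1000 reads, 86.7 to 88.4% came out whole (tolerance 0.02).

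limma 3.58.1 (R 4.3.3) was fitted to log2(RPM + 0.5) for 15422 genes with at least 0.5 RPM in at least 4 of 16 lungs, with 4 group means, trend and robust moderation, 2-sided tests and Benjamini-Hochberg adjustment over all genes at 0.05. RPM was preferred to FPKM for the minimum because division by span removes low genes with long introns. Because 0.5 is added, fold changes of low genes are understated. SD are of 4 libraries.

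Members, lists and tests were chosen with earlier results of these data known. Named in full are the 6 largest rises and 4 largest falls per pairwise comparison, the 3 largest interactions per side and, by group means, fixed ligand and receptor pairs; the others are described by ranges, and Tnfrsf14, Relt and the comparison of promoter matches with calls were singled out after their values were seen. Alternatives were other pseudocounts, minimums, scalings, moderation and weights, FPKM, only the compared groups, the replicate number as a block, hemoglobin as a covariate, voom on recovered reads and leaving out each library. Single calls were followed through them for the family members only. Calls of the signalling genes, the superfamily genes under other symbols and the marker lists come from the main fit alone. On simulated libraries for tumor_untreated against naive_untreated, 61% of planted 1.5-fold and 90% of planted 2-fold changes were called, with 9 false calls in 15416 genes. Only 100 genes were changed at each fold there, while the real comparison called 2271 genes higher and 4006 lower. These rates therefore need not hold for the real libraries. Plots used matplotlib 3.10.9 (python 3.11.15).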

Additional observations from a re-analysis of the deposited data

Results flagged for a closer look

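Among 148 groups of 4 libraries, 1 for each tested member in each lung group, 9 held a library far from the other 3 by Dixon's criterion, and chance flags about 1 in 20. Naive_untreated replicate 1 was the lowest for 4 members, Tnfrsf13c at 6.73 RPM (others 10.6 to 11.1), Tnfrsf1b at 86.7 RPM (103 to 104), Tnfrsf23 at 3.61 RPM (4.49 to 4.65) and Tnfrsf9 at 1.90 RPM (2.36 to 2.39). Tnfrsf11a was high in naive_untreated replicate 3 at 15.1 RPM (11.0 to 11.5), and Tnfsf14 in naive_untreated replicate 4 at 4.07 RPM (3.58 to 3.66). Tnfrsf11b was high in naive_GEMy replicate 3 at 4.85 RPM (4.21 to 4.27). Tnfrsf25 was high in tumor_GEMy replicate 3 at 2.33 RPM (1.71 to 1.78). Tnfsf9 was low in tumor_untreated replicate 1 at 2.59 RPM (4.35 to 4.44).

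For 6 members the effect of the cells differed between lungs with and without a tumor by the limma interaction test. The differences on the log2 scale were -1.65 for Tnfrsf9, -1.55 for Tnf, -1.43 for Tnfrsf1b, -1.18 for Fasl, -0.96 for Tnfsf14 and -0.44 for Tnfrsf1a.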

How the results depend on the processing

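Of the 47 calls of single members, 27 passed in every alternative run and 20 were lost in at least 1, while 31 of the 138 results that were not called passed in at least 1. No member reversed a called direction. Counts that moved by more than 1.5 times were as follows. With no minimum on low values, lower members in naive_GEMy against naive_untreated numbered 1 (Tnfrsf17), higher members in tumor_GEMy against naive_GEMy 3 (adding Tnfrsf17 and Tnfsf4), and positive interactions 1 (Tnfrsf17). Quantile normalization, a fit of the compared groups alone and the hemoglobin covariate each gave 1 lower member in naive_GEMy against naive_untreated (Tnfrsf19). In tumor_GEMy against tumor_untreated, the fit of the compared groups alone gave 1 higher and 1 lower member, median-of-ratios scaling and the hemoglobin covariate 1 lower, and array weights 5 lower. In tumor_GEMy against naive_GEMy, array weights gave 2 higher members, and the hemoglobin covariate gave 0 lower. Array weights gave 11 negative interactions. In the product 6 members were enriched at 4 times. The cause of these shifts was not tested.

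Leaving out 1 library at a time gave 13 to 17 higher and 4 to 6 lower members in tumor_untreated against naive_untreated, 6 to 10 and 0 to 0 in naive_GEMy against naive_untreated, 1 to 2 and 1 to 7 in tumor_GEMy against tumor_untreated, 1 to 2 and 3 to 6 in tumor_GEMy against naive_GEMy, and 0 to 0 positive and 4 to 10 negative interactions. The 7 and the 10 came without tumor_untreated replicate 1. The titles number the replicates in each group, and whether the numbers mark a pairing is not stated. Deviations of same-numbered libraries correlated at -0.25 to 0.49, and 6 of 16 libraries were closest to their own number. These values cannot exclude a pairing, and the main fit used none. With the replicate number as a block, tumor_GEMy against naive_GEMy had 7 lower members and the other counts stayed within 1.5 times.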
